A study of Rattus norvegicus with 2 samples.

Results

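Promyelocytes and granulocyte-monocyte progenitors are the dividing marrow precursors of neutrophils and monocytes. They were looked for in droplet RNA data from the knee meniscus of rats. Members were chosen by measured values: a cell was taken when it held at least 10 UMIs of Mpo, Elane and Prtn3 together, under 20 of Camp and Ngp together and under 5 of C1qa, C1qb and C1qc together. Cells first had to show at least 500 genes and at most 20% mitochondrial UMIs. This gave 119 of 6085 kept cells in the library from aged tissue and 108 of 8773 in the library from young tissue, 227 of 14858 in all. A UMI is a molecular tag that counts 1 captured RNA molecule.

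The groups were untreated as far as the labels say, and were named only by age, aged or young. The labels hold no strain, sex, age in weeks or number of animals. Both libraries came from tissue digested with protease and collagenase P and sorted by flow cytometry for viable cells. A single library stood for each age, so nothing could be tested across animals and each difference is one between libraries. Intervals are exact 95% intervals that cover counting error only.

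Neutrophil granules are filled in a fixed order. Promyelocytes make the azurophil granules, which carry myeloperoxidase (Mpo), the serine proteases neutrophil elastase (Elane), proteinase 3 (Prtn3) and cathepsin G (Ctsg), and the proteoglycan serglycin (Srgn) that packs them. Later precursors stop making these RNAs and turn to specific granule proteins such as cathelicidin (Camp) and neutrophilic granule protein (Ngp), which is the step the upper limit on Camp and Ngp marks. The transcription factors PU.1 (Spi1) and the C/EBP family drive the azurophil genes, Gfi1 and Cebpe mark the neutrophil branch, and Irf8 and the receptor Csf1r the monocyte branch.

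The azurophil protease and peroxidase promoters are shown because they drive the genes that define these cells. Of the 4 genes Mpo, Elane, Prtn3 and Ctsg, 3 were matched by symbol in RefSeq promoter sequences of build GRCr8, and Elane is named only. The windows are the 250 bases before the gene start of Mpo (chr10:73092152-73092401, plus strand), Prtn3 (chr7:10476197-10476446, minus strand) and Ctsg (chr15:33907597-33907846, minus strand), each written 5′ to 3′ along the gene.
Mpo: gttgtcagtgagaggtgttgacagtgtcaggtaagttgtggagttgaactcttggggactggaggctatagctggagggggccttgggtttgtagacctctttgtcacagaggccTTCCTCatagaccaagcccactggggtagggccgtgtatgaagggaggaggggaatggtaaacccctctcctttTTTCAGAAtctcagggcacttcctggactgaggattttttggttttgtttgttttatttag
Prtn3: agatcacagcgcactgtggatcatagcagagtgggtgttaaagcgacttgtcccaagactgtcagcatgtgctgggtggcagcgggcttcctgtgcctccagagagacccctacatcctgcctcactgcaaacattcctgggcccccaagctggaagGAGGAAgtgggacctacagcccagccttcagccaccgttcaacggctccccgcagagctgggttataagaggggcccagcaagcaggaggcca
Ctsg: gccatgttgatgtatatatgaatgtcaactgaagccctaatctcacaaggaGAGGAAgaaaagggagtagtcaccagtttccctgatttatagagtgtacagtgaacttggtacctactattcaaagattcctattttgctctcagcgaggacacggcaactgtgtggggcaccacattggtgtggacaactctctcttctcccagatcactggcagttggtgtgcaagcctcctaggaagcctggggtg
Capitals mark letters that match either a PU.1 type motif, GAGGAA, or a C/EBP type motif, TTNNGNAA, on either strand. The motifs shared 0 bases in these windows. GAGGAA was found in each of the 3 windows, starting 135 bases before the gene start in Mpo, 93 in Prtn3 and 199 in Ctsg. TTNNGNAA was found in the Mpo window only. Among 33469 rat promoters of this length, 23.3% held GAGGAA and 37.2% held TTNNGNAA, so either match is common.

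The rule genes chose the cells, so their levels are given as a description. Mpo, Elane and Prtn3 together ranged from 11 to 2154 UMIs per aged member with a median of 127, and from 10 to 854 per young member with a median of 156.5. An Mpo UMI was present in 118 of the 119 aged members and in each of the 108 young ones. Elane was found in 96 aged and 72 young members, and Prtn3 in 96 and 71, so not every member held all 3. Just inside the limit, 4 aged and 10 young cells held 10 to 14 UMIs, and just outside it 25 aged and 14 young cells held 5 to 9. Of all UMIs in kept cells, members carried 94.7% (aged) and 91.2% (young) for Mpo and 98.7% and 97.5% for Elane. Outside the members, the share of cells with an Elane UMI was 1.66% in the aged (1.35 to 2.02) and 2.79% in the young library (2.46 to 3.16). In B cell-marked cells, which should lack Elane, the shares were 0.55% and 2.26%, at median depths of 4509 and 3802 UMIs.

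Members were far deeper than other cells. Their median was 27201 UMIs in the aged and 24510.5 in the young library, against 3686 and 3846 over all kept cells, and they held 7.43% and 4.90% of all kept UMIs. A limit set in UMIs favours deep cells, and how much of the depth comes from that was not tested. When the limits were instead set at 0.1% of a cell's own UMIs, a rule chosen after seeing the data, 117 aged and 83 young cells passed. The share of kept cells that were members was 1.96% (1.62 to 2.34) in the aged and 1.23% (1.01 to 1.48) in the young library. No barcode of a member occurred in the other library, although 18 barcodes occurred in both. Summed over members, the aged library gave 3206533 UMIs and the young library 3028847.

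**Figure D1:**
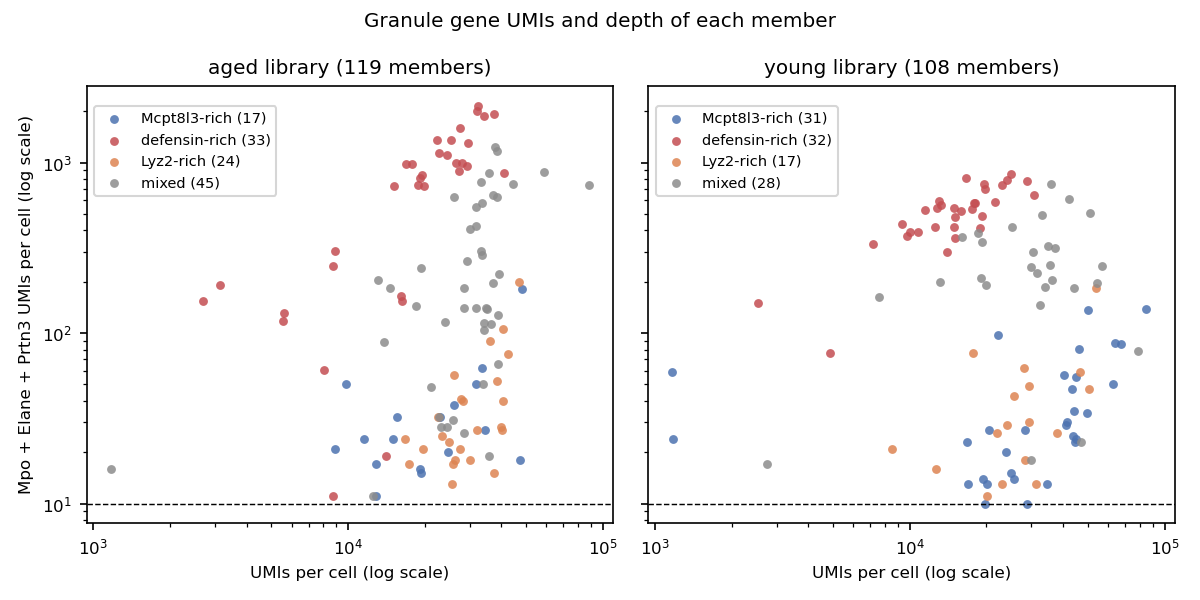
Each point is 1 member, with its total UMIs on the horizontal axis and its Mpo, Elane and Prtn3 UMIs on the vertical axis, both on log scales, in the aged (left) and young (right) library. Colours give the 4 expression groups with their number of cells, and the dashed line is the limit of 10 UMIs. The highest values, 2154 (aged) and 854 (young), belong to defensin-rich members.

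Azurophil genes that the rule did not use were also compared between members and other cells. Ctsg had 8597 counts per 1000000 UMIs (CPM) in aged and 7001 in young members, and 109 and 28.6 CPM in granule-rich neutrophils (cells with at least 20 UMIs of Camp and Ngp; 495 aged, 741 young). Ctsg was thus higher in members by 6.30 (aged) and 7.93 (young) on the log2 scale. Srgn was at 9742 and 9444 CPM in members, against 1856 and 1048 in these neutrophils. It is not particular to members, since 67.6% (aged) and 71.6% (young) of B cell-marked cells held an Srgn UMI. Lyz2, the lysozyme gene that neutrophils and monocytes share, was at 8295 and 9185 CPM in members and 11601 and 11454.5 in the neutrophils. S100a8, which mature neutrophils carry in bulk, went the other way, with 669 and 439 CPM in members and 157558 and 178498 in the neutrophils. Further azurophil genes were uneven. In the defensin-rich members described below, Serpinb1a was at 2273 and 3064 CPM, Cst7 at 616 and 542 and Ctsc at 107 and 126. Ms4a3 was at only 24.1 and 74.8 CPM there and Prss57 at 4.51 and 23.6, and both were lower in all other members. Members were limited in Camp and Ngp and these neutrophils were chosen on them, so the contrasts may follow from the selection. Ctsg also followed the rule gene Elane from cell to cell, as given below. These levels therefore describe the chosen cells and do not test the label. The spread among members is described next.

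Ribosome assembly genes were also higher in members than in these neutrophils. Nucleophosmin (Npm1), a ribosome assembly factor, was at 3309 and 3435 CPM in members and 419 and 439 in granule-rich neutrophils. Nucleolin (Ncl) was higher than in the neutrophils by 2.71 and 2.83 on the log2 scale. Mki67, which dividing cells make, was at 190 and 319 CPM in members, 118 and 135 in granule-rich neutrophils and 278 and 577 over all other kept cells, so members did not stand above the rest of the tissue. With cells thinned to 10000 UMIs, an Mki67 UMI was present in 63.9% of the 108 aged members deep enough and in 68.4% of the 98 young ones. In the granule-rich neutrophils deep enough, 41 of 495 aged and 58 of 741 young, the shares were 68.3% and 69.0%. These are only the deepest of the neutrophils. At 2000 UMIs, a depth that kept 468 aged and 708 young neutrophils, their shares were 11.8% and 10.6%. The member shares at 2000 UMIs were 25.4% (aged) and 28.3% (young).

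Monocyte-marked cells (at least 5 UMIs of Csf1r and F13a1 together; 165 aged, 126 young), which may include macrophages, were a second class for comparison. They were chosen on Csf1r, so its 440 and 525 CPM there, against 62.4 and 62.1 in members, are a description only. Irf8, a factor of the monocyte branch, was close in both classes, with 132 and 128 CPM in members and 147 and 97.2 in the monocyte-marked cells. Fcnb, a ficolin gene, was at 2273 and 1832 CPM in members and 2385 and 2834 in the monocyte-marked cells. Prom1, a membrane protein gene known from progenitors, was higher in members by 4.28 and 3.82 on the log2 scale.

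Members did not form 1 uniform population. Clustering of the members alone gave 4 groups, named here by leading genes, which the clustering itself used and which are therefore a description. The defensin-rich group held 33 aged and 32 young members, the Lyz2-rich group 24 and 17, the Mcpt8l3-rich group 17 and 31, and a mixed group 45 and 28. No order between libraries is read from these sizes.

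The defensin-rich group carried the azurophil programme at its strongest. Azurophil list genes made up 10.2% of its UMIs in the aged and 9.88% in the young library. Elane reached 18221 and 16476 CPM there, and Ctsg 24367 and 22907. The rat neutrophil defensin Np4 was at 13231 and 16299 CPM in this group and at most 401 CPM in any other. Defensin genes are close copies of each other, so reads may be split between them and the level of each is uncertain. Gfi1 and Cebpe, the neutrophil-branch factors, were highest here, with Cebpe at 116 and 124 CPM. The monocyte receptor Csf1r reached at most 1.97 CPM in either library.

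The Lyz2-rich group held monocyte-branch RNAs and, mostly through the single gene Fcnb, neutrophil-branch RNAs. Monocyte-branch list genes made up 0.359% of its UMIs in the aged and 0.468% in the young library, and neutrophil-branch genes 0.807% and 0.941%, each the highest of the 4 groups in both libraries. Lyz2 was at 19922 and 38928 CPM. Fcnb, which is in the neutrophil-branch list, was at 5513 and 7515 CPM and made up most of that list's share here. In the defensin-rich group Fcnb was at 10.5 and 17.7 CPM, with neutrophil-branch shares of 0.715% and 0.559%. The rank of that list in the Lyz2-rich group therefore rests on Fcnb. Irf8 was at 212 and 264 CPM and Klf4, another monocyte-branch factor, at 216 and 313. Elane was at 358 and 213 CPM, far below the defensin-rich group. The stem cell factor receptor Kit had no UMI in this group in either library.

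The Mcpt8l3-rich group had the lowest azurophil share, 0.797% and 0.489% of UMIs. It was led by genes of the mast cell protease family, Mcpt8l3 at 3487 and 2158 CPM and Mcpt1l4 at 1869 and 2297. These are also close copies, so their single levels are uncertain. Mpo was still present, at 1473 and 1134 CPM, while Elane reached at most 94 CPM in either library. Kit was at 22.9 and 55.6 CPM and Flt3, a receptor of early progenitors, at 17.8 and 35.8. Dntt, the terminal transferase gene of early lymphoid cells, was at 17.8 CPM in aged and 127 in young members of the group. Flt3 was chosen for mention after its values were seen.

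The mixed group lay between the others, with 3.52% and 3.84% azurophil UMIs and Lyz2 at 8113 and 8857 CPM. Its leading genes were stromal genes from a few aged cells and not a programme of the whole group. Of 402 Dcn UMIs in aged members, 3 cells held 391. Dcn encodes decorin, a matrix proteoglycan of fibroblasts.

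**Figure D2:**
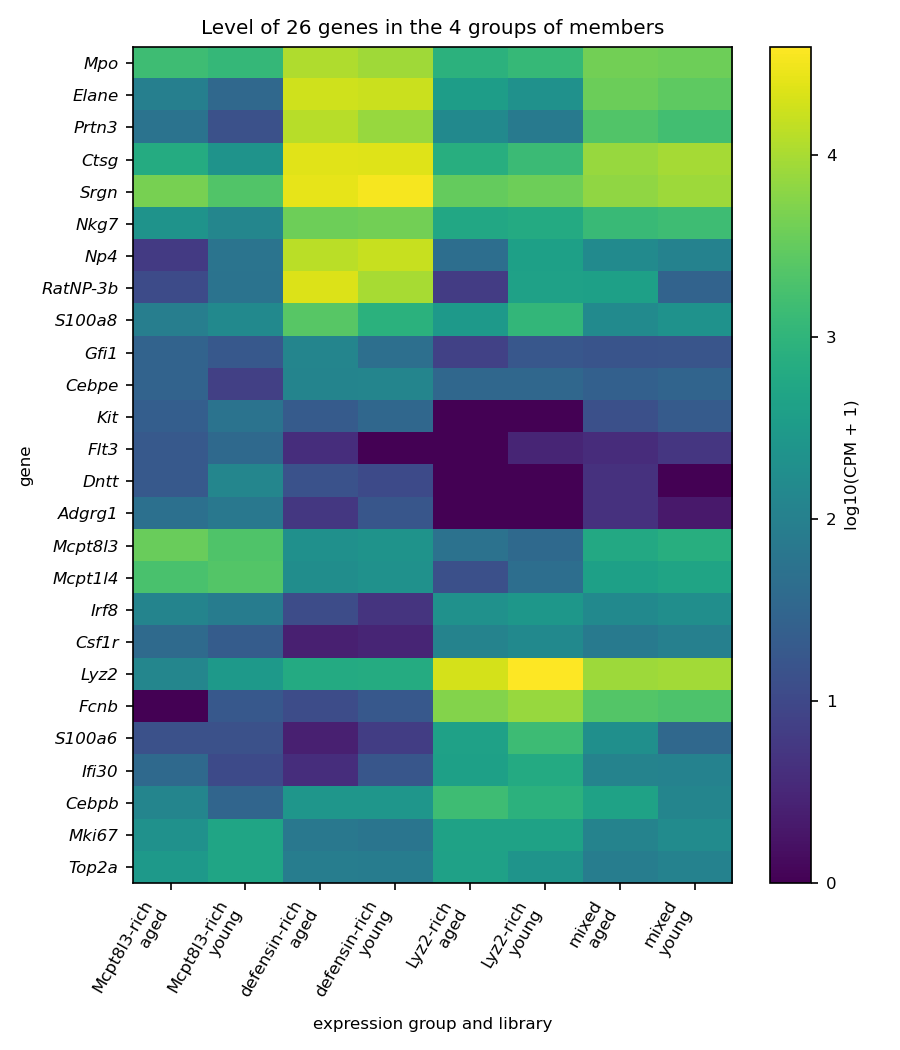
Colour gives the level of 26 genes as log10(CPM + 1) in the 4 expression groups (columns, aged and young side by side). Elane, Ctsg and Np4 are brightest in the defensin-rich columns and Lyz2 and Fcnb in the Lyz2-rich columns, and the Mcpt genes in the Mcpt8l3-rich columns.

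The boundaries between groups were partly a matter of settings. The defensin-rich group held the same 33 aged and 32 young cells when variable genes were chosen over both libraries together and when stress and stromal genes were left out. At resolution 1 it shrank to 11 aged and 30 young cells. The Lyz2-rich group ranged from 4 to 50 aged and from 17 to 21 young cells. When variable genes were chosen over both libraries together, 1 of the other groups held 52 aged and 1 young cell, so nearly all of its cells came from 1 library.

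Factors of both branches were seen together in a minority of members. At 10000 UMIs, 46 of 108 aged members held a UMI of Gfi1 or Cebpe, 63 held Irf8 or Csf1r, 14 held both and 13 neither. In young members the numbers were 41, 49, 13 and 21 of 98. In the defensin-rich group, 23 of 25 aged and 21 of 27 young members held Gfi1 or Cebpe, and 2 and 3 held Irf8 or Csf1r. In the Lyz2-rich group, 23 of 24 and 15 of 16 held Irf8 or Csf1r, 4 and 7 held Gfi1 or Cebpe, and 4 and 6 held both. The groups were made from these same cells, so this describes them and does not test them.

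Levels of some genes followed each other from cell to cell. With members thinned to 2000 UMIs, the rank correlation of Elane with Prtn3 was 0.89 across 118 aged and 0.92 across 106 young members. Elane and Ctsg gave 0.86 and 0.90, and Lyz2 and Fcnb gave 0.88 and 0.83. Elane and Lyz2 gave -0.23 and -0.17. Cells of a library share their depth and source, so these values carry no test. Elane and Prtn3 also chose the members, which shapes their values.

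Between the libraries, 875 of 8351 measured genes (10.5%) were at least 1.5-fold higher in aged members and 1196 (14.3%) at least 1.5-fold lower. A gene was measured with at least 20 UMIs over both libraries. The median log2 ratio of aged over young CPM over all of them was -0.06. Fewer cells of a kind and less RNA per cell cannot be told apart in these sums.

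Azurophil genes differed little as a list. Of 17 measured, 3 were at least 1.5-fold higher in aged members and 2 lower, with a median log2 ratio of 0.21. Mpo, Elane and Prtn3 are among the 17 and chose the members, so their ratios are a description. Prtn3 had 3605 CPM in aged and 1772 in young members, a log2 ratio of 1.02 (0.98 to 1.07). Elane had 5472 and 3676 CPM, a ratio of 0.57 (0.54 to 0.61), and Mpo 4550 and 3243, a ratio of 0.49 (0.45 to 0.53). Srgn was level, at 0.04 (0.02 to 0.07). When each member counted equally, as the mean of CPM over cells, the list median turned to -0.22, so no direction is given for the list. Across all settings the Elane ratio ran from -0.06 to 0.63 and that of Prtn3 from 0.29 to 1.09.

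Secreted inflammatory genes differed most among the lists with at least 6 measured genes. Of 12 measured, 10 were at least 1.5-fold higher in aged members and 1 lower, with a median log2 ratio of 2.49. Il1b, the cytokine interleukin 1 beta, had 666 UMIs in 43 aged members and 20 UMIs in 12 young members. The values are 208 and 6.60 CPM and a log2 ratio of 4.98 (4.34 to 5.70). The neutrophil-attracting chemokine Cxcl2 had 135 and 9.57 CPM, a ratio of 3.82 (3.27 to 4.41). Ccl3, a chemokine for monocytes, had 1074 and 392 CPM, and Ccl2 1071 and 370. Both were uneven between groups. Ccl2 had log2 ratios of 2.00 in Mcpt8l3-rich, 1.30 in defensin-rich, 0.20 in Lyz2-rich and 2.14 in mixed members. In the Lyz2-rich group, where Ccl2 was highest, it had 1859 and 1620 CPM. Ccl3 had -0.46, 1.70, 0.93 and 1.33 in the same order of groups. Cxcl1 had 289 and 2 UMIs, but 1 aged cell held 250 of them. Acod1, which makes itaconate in activated myeloid cells, had 71 UMIs in aged and 0 in young members, at least 22.4-fold higher. Of these UMIs, 57 were in the Lyz2-rich group, and across settings the Acod1 log2 value ran from 0.58 to 4.54. Members were not the only cells with this difference: the Il1b ratio was 3.53 in granule-rich neutrophils and 3.09 over all other kept cells.

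Free RNA was checked in thinned cells. At 2000 UMIs, an Il1b UMI was found in 15.3% of 118 aged and in 0 of 106 young members, where a floor of 3 cells allows up to 2.83% at this depth. At 10000 UMIs the shares were 26.9% and 8.16%. In B cell-marked cells, which should lack Il1b, the shares at 2000 UMIs were 2.87% (aged) and 1.83% (young). At that depth the young members did not stand above the B cell-marked cells. Unthinned, the member shares were 36.1% and 11.1%.

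Early response genes were mostly higher but not all. Of 23 measured in the AP-1 and early response list, 14 were at least 1.5-fold higher in aged members and 4 lower, with a median of 1.24. Nfkbia, the inhibitor that NF-kB induces against itself, had 864 and 135 CPM, a log2 ratio of 2.68 (2.52 to 2.83). Ier3, a stress-induced survival gene, had 132 and 10.9 CPM, a ratio of 3.60 (3.09 to 4.16). Junb had 708 and 181 CPM, a ratio of 1.97 (1.84 to 2.11). Jun was level at 854 and 842 CPM, and Fos was lower in aged members, at 268 and 390 CPM. Atf3, which the series title names, had 65.5 and 14.5 CPM and was seen in 50 aged and 16 young members, a ratio of 2.17 (1.70 to 2.68). It ran from 0.85 after thinning to 2000 UMIs to 4.08 with a limit of 50 rule UMIs.

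In thinned cells, 58.5% of the aged members and 22.6% of the young ones held an Nfkbia UMI. In B cell-marked cells of the same libraries the shares were 62.9% and 64.0%, close to each other. In granule-rich neutrophils they were 59.2% and 23.2%. No test of the difference between cell classes could be made with 1 library per age.

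**Figure D3:**
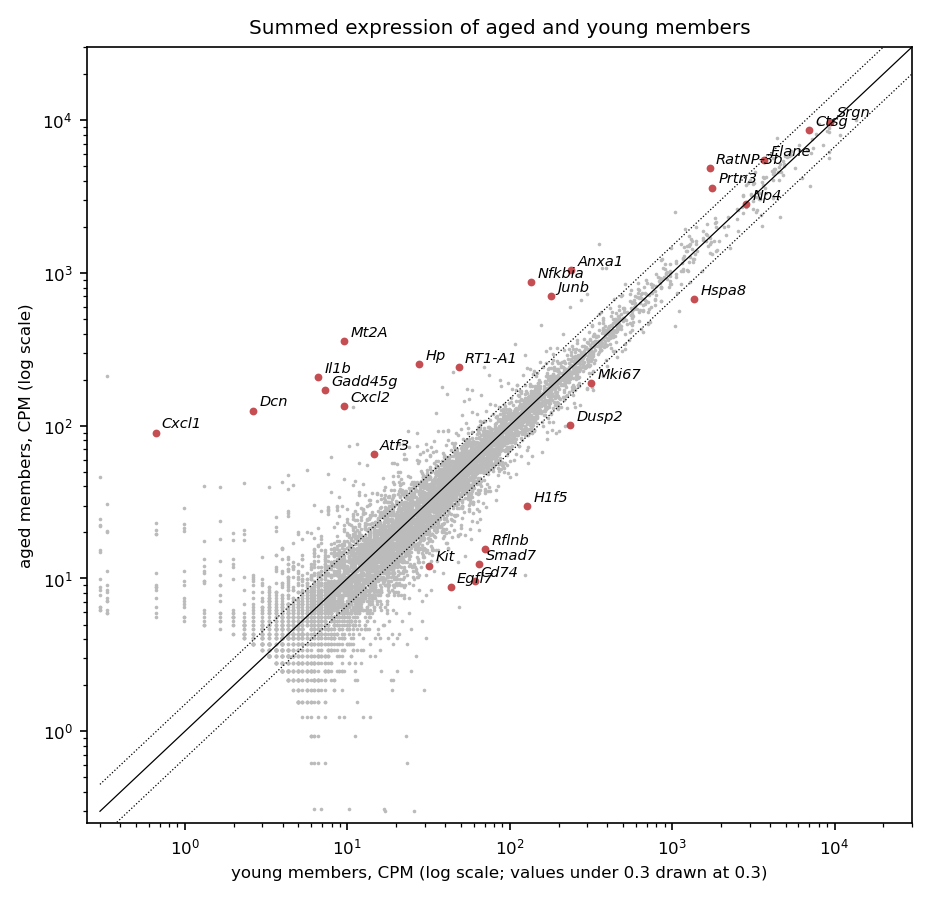
Each grey point is 1 gene with at least 20 UMIs, with its CPM in young members (horizontal) and aged members (vertical) on log scales, and named genes are red. The solid line marks equal levels and the dotted lines 1.5-fold, and Mt2A, Il1b and Nfkbia lie far above it.

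Cell cycle inhibitors were mixed, with 5 of 8 at least 1.5-fold higher in aged members and 2 lower. The median log2 ratio was 1.24, with an order-statistic interval over the genes of -0.84 to 4.55, so no direction is given for the list. Cdkn1b stood at -0.84 and Btg2 at -0.60. Gadd45g, a stress-induced growth arrest gene, had 170 and 7.26 CPM, a log2 ratio of 4.55 (3.94 to 5.23). Cdkn1a, which encodes p21, had 60.8 and 23.1 CPM, a ratio of 1.40 (0.99 to 1.81). In the Lyz2-rich group its ratio was -0.17 (-0.69 to 0.36). Cdkn2a, the other widely used senescence gene, had 1 UMI in aged and 0 in young members, too few for a ratio. S phase genes stood near the median of all genes, with 1 of 27 higher and 0 lower. Of 29 G2 and M phase genes, 0 were at least 1.5-fold higher and 10 lower, with a median of -0.36. Mki67 had 190 and 319 CPM, a ratio of -0.75 (-0.90 to -0.60). By group the Mki67 ratio was -1.27 in Mcpt8l3-rich, 0.15 in defensin-rich, -0.04 in Lyz2-rich and -0.53 in mixed members. The share of members with an Mki67 or Top2a UMI was close in the libraries, 73.1% (aged) and 74.5% (young) at 10000 UMIs. Within the Lyz2-rich group the G2 and M phase list stood the other way, with a median of 0.60. There 14 of 28 genes were at least 1.5-fold higher, against 19% of all measured genes. With variable genes chosen over both libraries together, and at resolution 1, the aged Lyz2-rich group was 4 cells, 2 of them among these 24, so this value and the others within that group hold for the main clustering only.

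Among single genes, the metallothionein Mt2A, a metal-binding stress protein gene, had 356 and 9.57 CPM, a log2 ratio of 5.22 (4.69 to 5.80). It was found in 81 aged and 11 young members. Haptoglobin (Hp), a haemoglobin-binding protein of specific granules, had 252 and 27.7 CPM, a ratio of 3.19 (2.86 to 3.53). Annexin A1 (Anxa1), a regulator of inflammation, had 1045 and 240 CPM, a ratio of 2.12 (2.01 to 2.24). The class I genes RT1-A1 and RT1-CE5 had ratios of 2.32 and 2.73, but RT1-A2 went the other way, with 178 and 321 CPM and a ratio of -0.85, whose interval did not reach 0. The class I list had a median of 0.10, with 4 of 11 higher and 2 lower. These copies are alike and vary between rat strains, so their counts are uncertain.

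Stem and progenitor genes were mixed, with more of them lower in aged members. Of 13 measured, 2 were at least 1.5-fold higher and 9 lower, with a median of -1.02 and an order-statistic interval over the genes of -1.72 to 0.06. The median was -0.23 with a limit of 50 rule UMIs and -0.05 with the limits set as 0.1% of UMIs. After thinning to 2000 UMIs 1 gene was left to measure, at 0.20, so no direction is given for the list. Kit had 39 UMIs in aged and 97 in young members, 12.2 and 32.0 CPM, a log2 ratio of -1.40 (-1.97 to -0.85). Egfl7, a gene of blood stem cells and vessels, had 8.73 and 43.3 CPM, a ratio of -2.31 (-2.95 to -1.71). The Mcpt8l3-rich group, where these genes are highest, gave 17 of 119 aged and 31 of 108 young members. Within that group the list median was -0.48, and in the mixed group it was 0.10, with 3 genes higher and 3 lower. Dusp2, a phosphatase gene, had 100 and 235 CPM and Smad7, an inhibitor of TGF-beta signalling, 12.5 and 65.0. Dusp2 was lower in the Mcpt8l3-rich group, with a ratio of -1.19, but higher in the Lyz2-rich and mixed groups, with 1.65 (0.45 to 3.07) and 2.17 (1.54 to 2.85). Over all members its ratio of -1.23 shrank to -0.31 with the limits set as 0.1% of UMIs, short of 1.5-fold.

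Within the 4 groups, genes at least 1.5-fold higher in aged members made up 9.85%, 20.6%, 19% and 13.6% of those measured, and genes at least 1.5-fold lower 19.2%, 10.3%, 13.2% and 11.6%. The order of values here and below is Mcpt8l3-rich, defensin-rich, Lyz2-rich and mixed. Nfkbia had log2 ratios of 1.17, 2.13, 3.01 and 2.87. Mt2A had 2.92, 4.30, 6.06 and 4.88. Gadd45g had 2.92, 5.17, 4.45 and 3.19. Rflnb, a filamin-binding protein gene, was lower in aged members of every group, with -2.65, -2.28, -2.04 and -1.39. Atf3 was more uneven, at 2.99, 2.86, 0.52 and 3.57, and the interval in the Lyz2-rich group included 0. Il1b came mostly from the Lyz2-rich group, where it had 629 and 24.5 CPM.

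**Figure D4:**
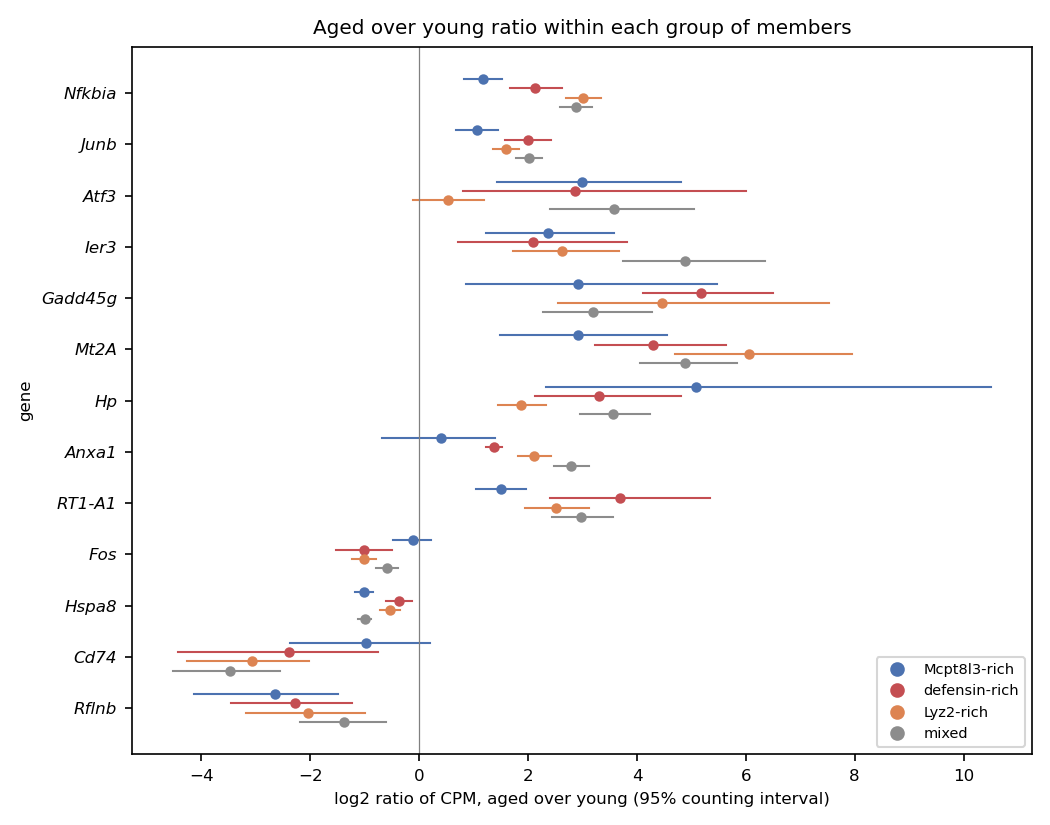
Points give the log2 ratio of aged over young CPM of 13 genes within each of the 4 groups of members, with 95% counting intervals as lines. Nfkbia, Junb, Gadd45g and Mt2A lie to the right of 0 in all 4 groups, and Rflnb lies to the left.

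Several other lists had medians near 0. Transcription factors of the lineage had a median of 0.05, with 6 of 24 higher and 3 lower. Cebpb, a C/EBP factor of stress and maturation, had 596 and 235 CPM, a log2 ratio of 1.34, while Spi1 had 241 and 188 CPM. Endoplasmic reticulum genes, which fold and export granule proteins, had 3 of 30 higher and 1 lower. Oxidative phosphorylation genes encoded in the nucleus had 0 of 25 past 1.5-fold in either direction, and NADPH oxidase genes 0 of 6. Genes encoded in mitochondrial DNA were not in the list. Among them, Mt-cyb had log2 ratios of -0.04 in Mcpt8l3-rich, -1.09 in defensin-rich, -0.82 in Lyz2-rich and -0.87 in mixed members. Mt-co2 had 0.20, -0.67, -0.64 and -0.69 in the same order. Of 14 heat shock genes 3 were higher and 2 lower, and Hspa8, a constitutive chaperone, was lower in aged members with 676 and 1369 CPM.

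**Figure D5:**
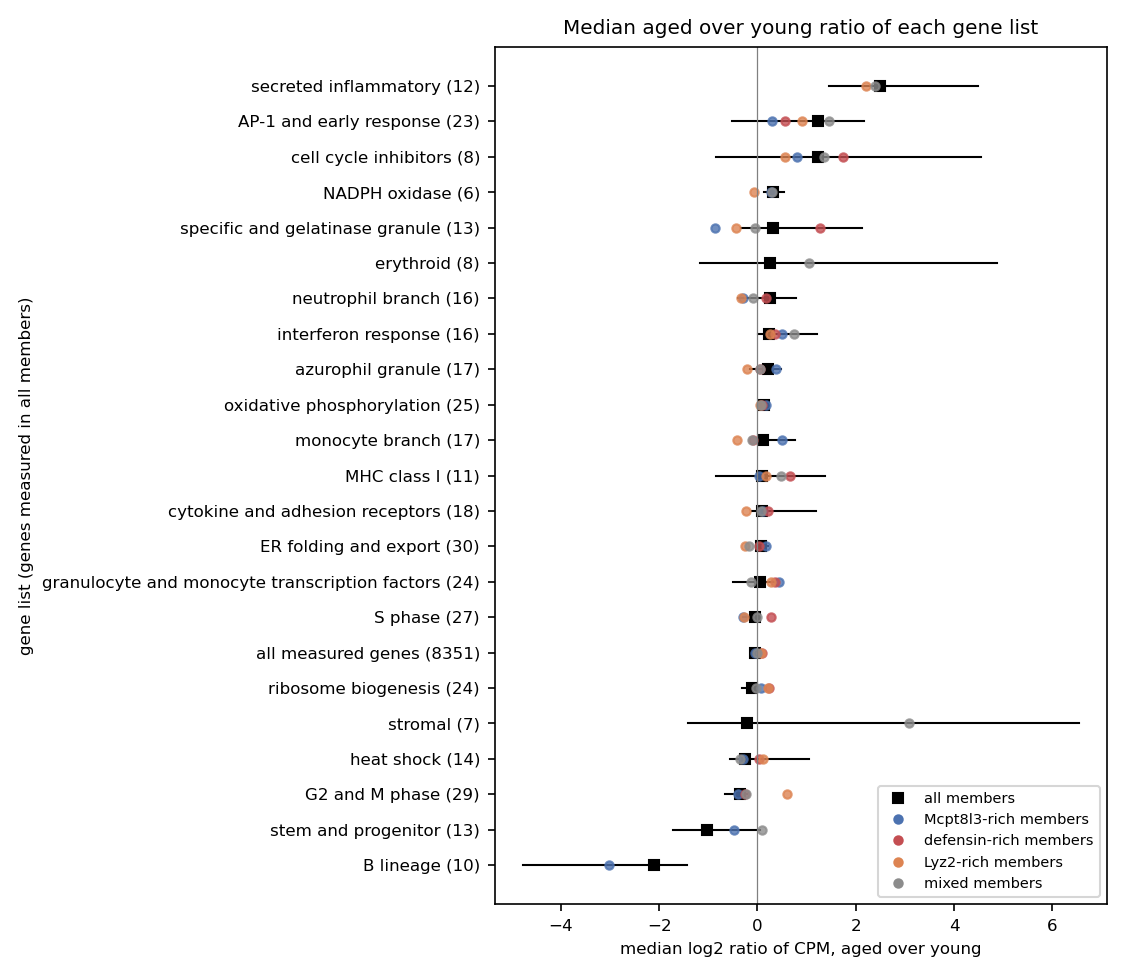
Squares give the median log2 ratio of aged over young CPM of each gene list over all members, with an order-statistic 95% interval over its genes, and coloured points the median within each group with at least 6 measured genes. Secreted inflammatory genes stand at 2.49 and B lineage genes at -2.11, and most other lists lie near 0.

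Most markers of other lineages were low but not equal in the libraries. The exception was the T and NK list, with 4841 UMIs in aged and 3944 in young members, 0.151% and 0.130%, against 0.0264% and 0.0231% in other cells. Of these, 4807 and 3869 were Nkg7, a granule protein gene that also stands in the azurophil list. B lineage genes made up 0.00764% of aged and 0.0324% of young member UMIs, and all 10 measured were at least 1.5-fold lower in aged members. The B cell receptor gene Cd79a had 1 UMI in aged members and 21 in 9 young members. The pre-B gene Igll1 had 71 UMIs in young members, 69 of them in 3 cells. The class II chaperone Cd74 had 9.67 and 60.7 CPM, with 108 of 184 young UMIs in 3 cells. Of the 4 class II genes measured, 3 were at least 1.5-fold lower in aged members and 0 higher, with a median of -2.45. Stromal genes made up 0.0276% of aged and 0.0130% of young UMIs. When members with at least 3 UMIs of such genes were left out, 113 aged and 82 young members remained. The part of these UMIs in the differences above was not tested.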

How the data were processed

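RNA of single cells was counted in 1 aged and 1 young library. The deposited matrices hold raw UMI counts per gene and barcode, made with Cell Ranger 6.1.1 per the file headers and the submitters' processing notes. The genome build is not given in the sources used here, nor is the annotation. There are 25399 genes, named as in the files.

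Members were selected by the stated rule and their counts summed per library. CPM are counts scaled to the summed UMIs. Ratios carry exact conditional binomial intervals and shares Clopper-Pearson intervals, both at 95% and covering counting error only. A count of 0 was set against a floor of 3 counts per library, and no fold was given with both libraries at or under 3. No test was made from cells. Doublets were not removed, since no caller was run on the members.

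Members were clustered with scanpy 1.11.5 and leidenalg 0.10.2 on log-normalised counts (10000 UMIs per cell), using 20 principal components of 2000 variable genes (picked per library), 15 neighbours and resolution 0.6. Thinning drew 2000 UMIs per cell without replacement and left out 1 aged and 2 young members.

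Named genes were the rule genes, the 15 with most CPM, the 15 largest ratios in each direction (with 100 summed counts and 50 CPM or more in either library, without mitochondrial, ribosomal, haemoglobin, immunoglobulin and uncharacterised genes), up to 8 per list, the 10 largest ratios over each neighbouring class, and Atf3, Cdkn1a and Cdkn2a. Np4, RatNP-3b, Prss57, Ms4a3, Cst7, Ctsc, LOC306079 and the Mcpt genes were also chosen after their values were seen. The members and all lists were chosen with earlier results of these data known. Alternatives covered the cell filter, the rule's limits, other lineages, edgeR 4.0.16 TMM and DESeq2 1.42.0 scaling, the choice of total, means over cells, thinned counts and the smallest count used. The ratio and its interval were tested on simulated counts drawn independently for each gene. The simulation had no cells, so it could not check the interval for genes whose UMIs lie in a few cells. Python 3.11.15 (pandas 2.3.3, scipy 1.17.1, numpy 2.4.6) and R 4.3.3 were used.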

Additional observations from a re-analysis of the deposited data

How the results depend on the processing

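The member share in the aged library, 1.96%, was 3.32% when cells needed 1000 genes and no more than 10% mitochondrial UMIs, 2.37% with a limit of 5 UMIs and 1.27% with a limit of 50. The young share, 1.23%, was 0.809% with a limit of 50 UMIs, 0.935% without members holding UMIs of other lineages and 0.946% with the limits set as 0.1% of UMIs. The counts of genes at least 1.5-fold higher and lower, 875 and 1196, were 360 and 324 of 2623 measured after thinning to 2000 UMIs, where the balance turned, 1442 and 1938 of 10186 with at least 5 summed counts, and 365 and 374 of 5093 with at least 100. The cause was not tested. The azurophil median, 0.21, was -0.22 as a mean over cells and -0.18 after thinning, and the cause was not tested. The stem and progenitor median, -1.02, was 0.20 after thinning, where 1 gene was left to measure, as for the B lineage median, 0.13 from Blnk alone, itself at 0.13. Ifitm3 turned to -1.15 after thinning. Meis1 turned to 0.59 with the limits set as a share of UMIs and to 0.34 with equal weight of the 4 groups. Comp turned to -0.24 without members holding UMIs of other lineages and to -0.39 without the 3 members of each library with most stromal UMIs. Of 57 named genes at least 1.5-fold apart, 4 changed sign under any alternative. Dcn and Acod1 ran down to 0.58 and Cxcl1 to 1.85. The secreted inflammatory median stayed between 1.75 and 3.16 and the AP-1 median between 0.79 and 1.31. No paired analysis was possible because each age has 1 library, and no replicate could be left out for the same reason.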

Other observations

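Neutrophil defensin RNA was detected differently outside the cells that make it. In B cell-marked cells thinned to 2000 UMIs, the share with an Np4 UMI was 1.40% (aged) and 5.71% (young), and with an S100a8 UMI 19.7% and 57.4%. Members of the Lyz2-rich group had 44.8 CPM of Np4 in the aged and 401 in the young library. An uncharacterised gene, LOC306079, had 681 UMIs in 107 aged members and 1 UMI in young members, and its log2 ratio over all other kept cells was 7.78.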
